A study of Homo sapiens with 17 samples.

Results

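RNA of MDA-MB-231 cells taken 12 h after addition of TRAIL was compared with RNA taken at 0 h, across all genes. MDA-MB-231 is an established line from a human triple-negative breast cancer, described in the labels as mesenchymal and basal B, and was kept in RPMI medium with 10% serum. The 6 libraries of this comparison, 3 at 12 h and 3 at 0 h, were chosen by their labelled time from the 17 libraries of a time course with 45 nM TRAIL. The other libraries, from 1, 3, 6 and 24 h, entered the fit for the estimate of the spread, and 6 h and 24 h were used as neighbours in time. Both groups are of the same line and carry the same treatment label, the 0 h group included, so 0 h is the start of the course. No library analysed here was labelled as untreated at 12 h, so 12 h with TRAIL and 12 h in culture cannot be told apart. The labels call the libraries triplicates without saying that they came from separate cultures, so that p-values measure the spread between these libraries, which may be technical.

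TRAIL is a ligand of the TNF family that binds the death receptors TNFRSF10A and TNFRSF10B and can start apoptosis through FADD and caspase 8. The same receptors can also signal through kinases and ubiquitin ligases to NF-kB, a family of transcription factors held in the cytoplasm by IkB proteins. NF-kB turns on genes of chemokines, cytokines and survival proteins, and also genes of its own inhibitors, which end the response. NFKB2 encodes p100, the precursor of the p52 subunit, which pairs with RELB in the non-canonical branch of the pathway.

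At 12 h, inhibitors of NF-kB, the survival gene BIRC3, neutrophil-attracting chemokines and several cytokines were above 0 h, and TFF1, TFF2, C3, CFB, C1R and SAA2 were below it. Genes of DNA replication were lower and many genes of mitosis were higher. Differences were tested with edgeR's quasi-likelihood test in 15365 genes, and every adjusted p below comes from it, with Benjamini-Hochberg adjustment across those genes. Genes under 0.05 count as called. Of the 15365 genes 1911 (12.4%) were called, 916 (5.96%) higher and 995 (6.48%) lower at 12 h. Counts for lists of genes below are to be read beside these shares. Most of the called differences were small, with a median absolute log2 fold change of 0.35. A change of at least 2-fold was called for 31 genes that rose (0.202%) and 59 that fell (0.384%). When libraries were scaled by library size alone, the split became 1080 higher and 761 lower. Single libraries moved these counts. The calls dropped to 326 higher and 398 lower without 12 h replicate 2, to 434 and 583 without 0 h replicate 1, to 452 and 568 without 0 h replicate 2, and to 592 higher genes without 12 h replicate 3. The genes lower by at least 2-fold numbered 29 without 12 h replicate 2, and those higher by at least 2-fold numbered 19 without 0 h replicate 2 and 19 without 12 h replicate 1.

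**Figure D1:**
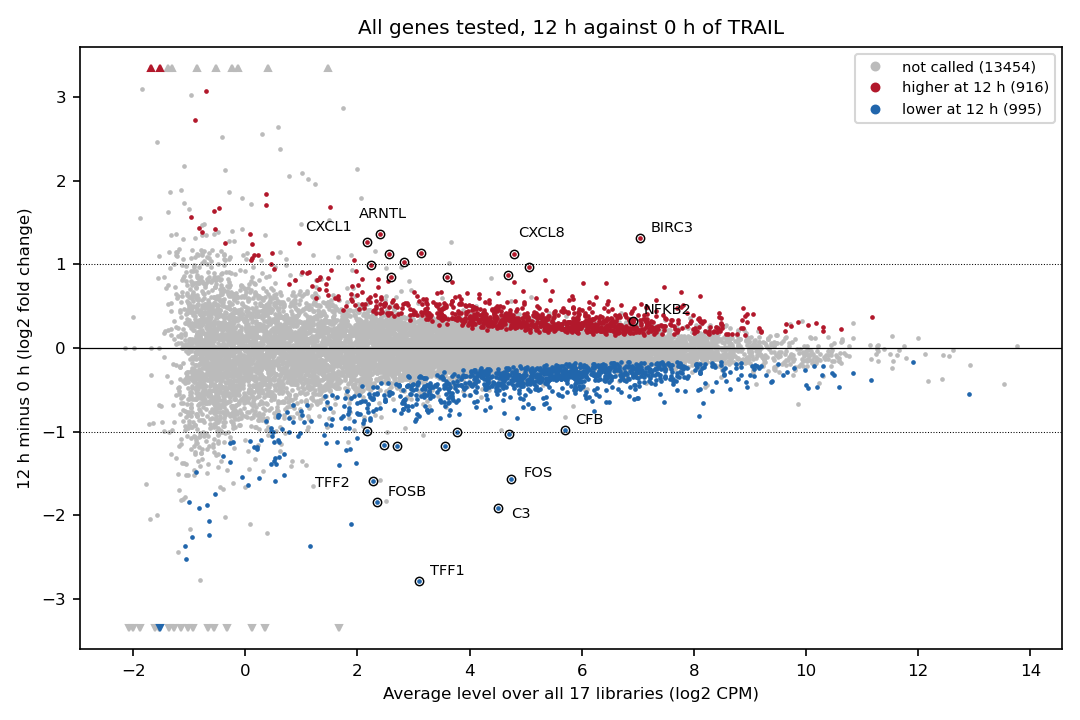
Each point is 1 of the 15365 genes tested, with its average level over all 17 libraries in log2 CPM on the horizontal axis and its log2 fold change between 12 h and 0 h on the vertical axis. Red and blue mark the 916 genes called higher and the 995 called lower. Rings mark NFKB2 and the genes named by a rule on size. Dotted lines mark 2-fold, and triangles mark genes of low counts beyond the axis. BIRC3 has the highest average level among the ringed genes above the upper dotted line.

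Total counts in the 6 libraries ran from 14423169 to 19234939, with 20746 to 21011 entries detected. Mitochondrial genes took 6.75 ± 1.46% of counts at 0 h and 5.72 ± 0.953% at 12 h (SD, n = 3; exact two-sided permutation p = 0.4, where the smallest possible with 3 against 3 is 0.1). The dependence of counts on transcript length was highest in 12 h replicate 2, at 0.0756 log2 units per doubling of length. Its mean was -0.036 at 0 h and 0.017 at 12 h (exact two-sided permutation p = 0.2). The dependence on GC content was lowest in the same library, at -0.11 log2 units per 10 points of GC. Its mean was 0.041 at 0 h and -0.042 at 12 h (exact two-sided permutation p = 0.3). The genes called higher had a median transcript length of 4392 bases and a GC content of 44.4%, against 2756 bases and 56.9% for those called lower and 3333 bases and 48.4% for all genes tested. With offsets for length and GC content, 1597 of the 1911 calls (83.6%) were made again in the same direction.

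NFKB2 and its partner RELB were modestly higher at 12 h, and 7 of 10 genes for inhibitors and ubiquitin editing in the pathway rose. Levels are given in CPM, the counts scaled to a common library total, which are not divided by gene length. NFKB2 (chr10:102394110-102402529 in GENCODE 29, GRCh38) measured 82.7, 79.8 and 78.4 CPM at 0 h and 104, 93.3 and 105 CPM at 12 h. All 3 libraries at 12 h lay above all 3 at 0 h, and the log2 fold change was 0.33 (SE 0.0676, adjusted p = 0.0038). In bulk RNA a change in the number of cells that express a gene and a change in RNA per cell cannot be told apart. An exact two-sided permutation test of log2 CPM gave p = 0.1, the smallest that 3 against 3 allows. RELB measured 18.2, 20.6 and 21 CPM at 0 h and 23.3, 24.7 and 28.8 CPM at 12 h, again without overlap, with a log2 fold change of 0.37 (adjusted p = 0.0095). Without 0 h replicate 1 or without 12 h replicate 3, RELB was no longer called (adjusted p up to 0.063). The other subunit genes were not called: NFKB1 differed by 0.16, RELA by 0.02 and REL by 0.01 log2 units. Thus 2 of 5 subunit genes were called higher and 0 lower.

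Of 10 genes for IkB proteins, their relatives and the ubiquitin-editing enzymes that restrain NF-kB, 7 rose and 0 fell, with a median log2 fold change of 0.33 against -0.0032 over all genes tested. NFKBIA, which encodes the inhibitor IkB-alpha, measured 42.6, 44.2 and 46 CPM at 0 h and 60.6, 56.9 and 61.6 CPM at 12 h. The lowest 12 h library lay well above the highest at 0 h, and the log2 fold change was 0.43 (SE 0.0634, adjusted p = 0.00023). NFKBIE, which encodes IkB-epsilon, measured 50.3, 44.7 and 45.9 CPM at 0 h and 73.6, 70.1 and 70.7 CPM at 12 h, a log2 fold change of 0.60 (adjusted p = 7.6e-06), with every 12 h library above every 0 h library. TNFAIP3, which encodes the ubiquitin-editing enzyme A20, measured 9.89, 7.48 and 8.77 CPM at 0 h and 13.8, 14.9 and 12.3 CPM at 12 h. The groups did not overlap and the log2 fold change was 0.65 (adjusted p = 0.00038). BCL3, TNIP1, CYLD and OTULIN also rose, by 0.55, 0.26, 0.40 and 0.26 log2 units. CYLD was not called without 12 h replicate 2, nor OTULIN without that library, 0 h replicate 1 or 12 h replicate 3 (adjusted p up to 0.060 and 0.13). NFKBIB, NFKBIZ and TNIP2 differed by 0.05, -0.03 and 0.03 and were not called.

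Among 11 genes for IKK and NIK kinases and TRAF adaptors, 3 rose and 0 fell. TRAF1, an adaptor that is itself an NF-kB target, had 14.9, 16.8 and 18.1 CPM at 0 h and 28.8, 28.6 and 30.3 CPM at 12 h. It separated the groups completely, with a log2 fold change of 0.82 (SE 0.078, adjusted p = 1.6e-06). The kinase genes IKBKE and TBK1 rose by 0.42 and 0.28 log2 units. IKBKE was not called without 0 h replicate 1 or 12 h replicate 2, nor TBK1 without 0 h replicate 2 or 12 h replicate 2 (adjusted p up to 0.061 and 0.089). MAP3K14, which encodes NIK, the kinase that starts p100 processing, differed by 0.18 and was not called (adjusted p = 0.10).

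Genes are named by size where they belonged to the 12 strongest rises or the 12 strongest falls among called genes with an average of at least 2 log2 CPM and no overlap of the groups. These conditions were met by 1741 of the 1911 called genes. For genes so named the lack of overlap was thus fixed by the choice, and it adds nothing to the call. BIRC3 (chr11:102317450-102339403), which encodes the ubiquitin ligase and apoptosis inhibitor cIAP2, came next to the highest of them. It measured 41.3, 39.8 and 46.5 CPM at 0 h and 103, 113 and 102 CPM at 12 h, 2.49-fold higher at 12 h, with a log2 fold change of 1.32 (SE 0.0947, adjusted p = 7.6e-08). As the rule required, every 12 h library held more than any 0 h library. Its paralogue BIRC2 rose by 0.44 (adjusted p = 0.0025), from 112, 111 and 119 to 144, 166 and 153 CPM. XIAP and BIRC5 were not called, at 0.14 and 0.06, so that 2 of 5 tested genes of the family rose. ICAM1, a surface receptor for leukocyte integrins, measured 34.3, 40.4 and 40.6 CPM at 0 h and 63, 67 and 68.1 CPM at 12 h. The groups lay far apart for their spread, with a log2 fold change of 0.78 (SE 0.0675, adjusted p = 5.3e-07). IRAK2, an adaptor kinase of interleukin-1 and Toll-like receptors, rose by 0.57 (adjusted p = 0.0019).

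The same genes can be set beside their neighbours in time. The comparisons of 12 h with 6 h and of 24 h with 12 h share the 12 h libraries with the comparison above. Against 6 h, 3168 of all genes (20.6%) were called, 8.7% higher and 11.9% lower at 12 h. Against 12 h, 1847 (12%) were called at 24 h, 6.42% higher and 5.6% lower. All 5 subunit genes were called lower at 12 h than at 6 h, and 3 of 5 rose again at 24 h. NFKB2 averaged 159 ± 5 CPM at 6 h, fell to 101 ± 6.5 by 12 h and stood at 123 ± 2.72 by 24 h (SD, n = 3 each). The log2 difference was -0.66 (adjusted p = 1.7e-06) from 6 h to 12 h and 0.29 (adjusted p = 0.010) from 12 h to 24 h. BIRC3 moved alike, with -0.82 (adjusted p = 4.8e-06) and 0.73 (adjusted p = 8.7e-05), and TRAF1 had -1.33 (adjusted p = 2.0e-10) and 0.78 (adjusted p = 3.6e-06). For these 3 genes the mean at 12 h was below those at 6 h and 24 h and above that at 0 h.

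**Figure D2:**
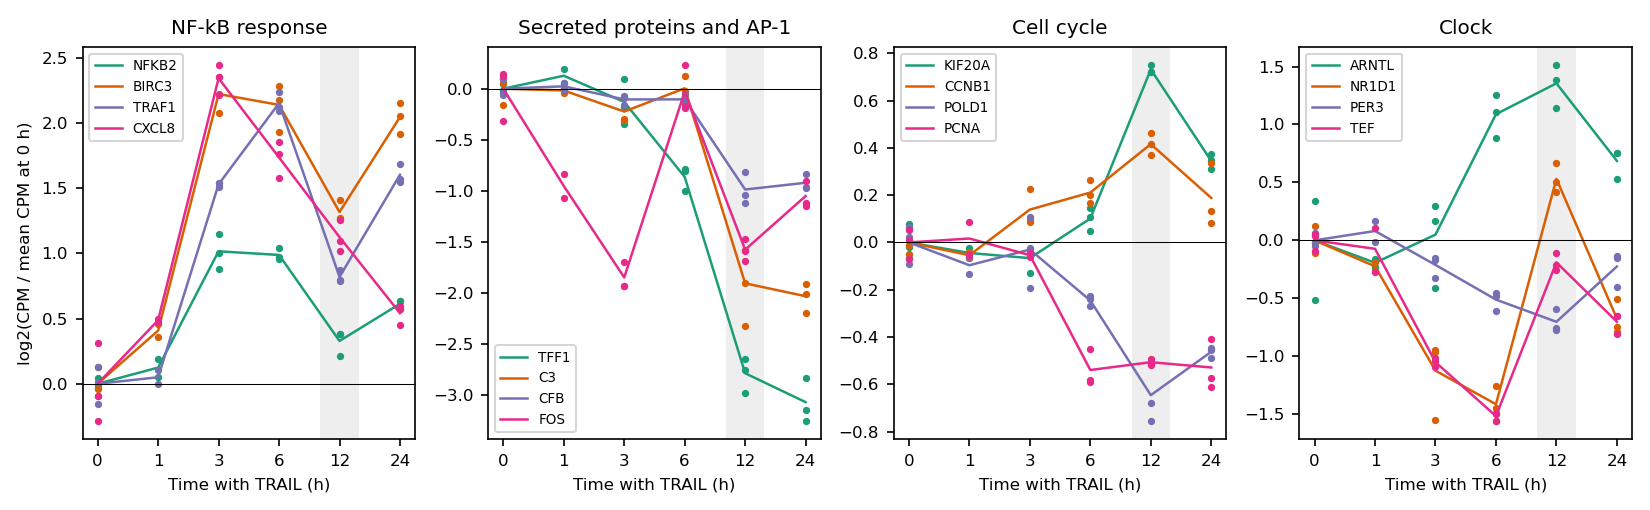
Points show single libraries and lines connect group means at 0, 1, 3, 6, 12 and 24 h (times evenly spaced, not to scale), as log2 of CPM over the mean CPM at 0 h; 12 h is shaded. NFKB2, BIRC3 and TRAF1 dip at 12 h, TFF1, C3 and CFB step down between 6 h and 12 h, KIF20A peaks at 12 h, and NR1D1 and TEF return from their low at 6 h.

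Of 7 genes for chemokines that attract neutrophils, 4 had enough counts to be tested and 3 rose, with a median log2 fold change of 1.03 over the 4. CXCL8, which encodes interleukin-8, measured 10.6, 9.28 and 14.1 CPM at 0 h and 24.1, 27 and 22.9 CPM at 12 h. Its lowest library at 12 h was well above its highest at 0 h, and the log2 fold change was 1.13 (SE 0.119, adjusted p = 6.6e-06). CXCL1, which acts on the same receptor CXCR2, measured 1.24, 1.18 and 1.62 CPM at 0 h and 3.91, 3.31 and 2.67 CPM at 12 h. Its groups did not overlap either, as the rule on size required for both genes, with a log2 fold change of 1.27 (SE 0.208, adjusted p = 0.00057). CXCL3 rose by 0.94 (adjusted p = 0.033) from 2.18, 0.872 and 1.62 CPM to 4.25, 2.26 and 2.61 CPM. The call for CXCL3 was lost without 0 h replicate 2, 0 h replicate 3 or 12 h replicate 1 (adjusted p up to 0.16). CXCL2 differed by 0.36 and was not called (adjusted p = 0.12). The log2 difference of CXCL8 was -0.61 (adjusted p = 0.00053) from 6 h to 12 h and -0.59 (adjusted p = 0.0034) from 12 h to 24 h.

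Of 10 other chemokines 6 were tested and 2 were called higher, both from few counts. CXCL10 and CXCL11 encode ligands of CXCR3, a receptor of activated T cells and natural killer cells. CXCL10 had 4, 0 and 0 counts at 0 h and 11, 11 and 9 at 12 h, with a log2 fold change of 2.73 (adjusted p = 0.032). CXCL11 had 10, 5 and 5 counts against 18, 19 and 15, a log2 fold change of 1.25 (adjusted p = 0.016). Both sets of counts separated the groups. CXCL10 was not called when any library other than 0 h replicate 1 was left out (adjusted p up to 0.13). CXCL11 was not called without 0 h replicates 2 or 3 or 12 h replicates 1 or 2 (adjusted p up to 0.075).

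The promoters of these chemokine genes are shown because NF-kB dimers bind a known class of sequences and the genes all lie on chromosome 4. RefSeq promoters (GRCh38.p14, 250 bases before to 50 after the annotated start, 5′ to 3′ on the gene's strand) were searched on both strands for GGNNNTTCC and its reverse complement GGAANNNCC. Capitals mark the matches, overlapping ones merged, and the order follows the absolute log2 fold change.
CXCL10: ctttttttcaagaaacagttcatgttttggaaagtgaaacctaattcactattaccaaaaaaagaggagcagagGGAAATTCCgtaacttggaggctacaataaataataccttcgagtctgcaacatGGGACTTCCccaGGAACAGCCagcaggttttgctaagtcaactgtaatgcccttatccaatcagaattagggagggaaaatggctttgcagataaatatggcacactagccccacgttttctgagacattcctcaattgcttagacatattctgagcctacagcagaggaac
CXCL1: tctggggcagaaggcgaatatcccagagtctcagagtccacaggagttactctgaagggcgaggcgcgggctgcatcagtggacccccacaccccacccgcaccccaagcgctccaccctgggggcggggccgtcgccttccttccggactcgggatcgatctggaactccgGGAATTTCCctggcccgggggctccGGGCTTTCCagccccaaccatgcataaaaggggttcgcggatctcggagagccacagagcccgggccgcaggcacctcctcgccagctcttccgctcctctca
CXCL11: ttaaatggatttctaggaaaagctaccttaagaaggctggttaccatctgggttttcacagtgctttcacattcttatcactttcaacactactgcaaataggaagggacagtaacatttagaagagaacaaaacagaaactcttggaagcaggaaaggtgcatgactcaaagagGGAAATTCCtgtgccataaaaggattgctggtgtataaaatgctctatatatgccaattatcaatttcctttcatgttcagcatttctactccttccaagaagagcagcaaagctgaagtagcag
CXCL8: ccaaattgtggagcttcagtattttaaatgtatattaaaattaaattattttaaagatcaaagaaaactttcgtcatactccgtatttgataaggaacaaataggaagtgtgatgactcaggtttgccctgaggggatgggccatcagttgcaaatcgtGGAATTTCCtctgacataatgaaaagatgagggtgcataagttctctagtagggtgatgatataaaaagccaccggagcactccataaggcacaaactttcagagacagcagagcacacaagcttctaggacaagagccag
CXCL3: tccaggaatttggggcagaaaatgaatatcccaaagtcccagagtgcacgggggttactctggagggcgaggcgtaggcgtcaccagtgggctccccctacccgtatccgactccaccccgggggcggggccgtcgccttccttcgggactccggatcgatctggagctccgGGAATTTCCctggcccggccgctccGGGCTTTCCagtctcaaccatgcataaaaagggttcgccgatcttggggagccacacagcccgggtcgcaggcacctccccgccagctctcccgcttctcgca
The windows lie at chr4:76023448-76023747 (minus strand), chr4:73869143-73869442 (plus), chr4:76036021-76036320 (minus), chr4:73740319-73740618 (plus) and chr4:74038640-74038939 (minus). In CXCL1 and in CXCL3 the matches start 78 and 53 bases before the annotated start, in CXCL8 91, in CXCL11 75, and in CXCL10 176, 122 and 110 bases before it. Among the 23 called members of the NF-kB, chemokine and cytokine lists, 19 had a promoter in the table and 11 of these (57.9%) held a match, against 5498 of 27305 promoters overall (20.1%). NFKB2, BCL3 and NFKBIA can be compared: NFKBIA and BCL3 held 2 matches each and NFKB2 held 0 in this window. The lists were chosen with earlier results of these data known, and the share among their members not called was not computed. These shares therefore do not relate a match to a call at 12 h. A match describes the letters and not binding.

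Interleukins and colony-stimulating factors gave 6 higher and 0 lower calls among 13 tested genes, with a median log2 fold change of 0.52. CSF1, which encodes the growth factor of macrophages, measured 170.4, 169.6 and 171 CPM at 0 h and 237, 232 and 262 CPM at 12 h. The 0 h libraries were nearly equal and all 12 h libraries lay above them, with a log2 fold change of 0.52 (SE 0.0536, adjusted p = 4.8e-06). IL11, a cytokine of the interleukin-6 family, measured 16.4, 14.2 and 14.6 CPM at 0 h and 26.7, 25.2 and 26.4 CPM at 12 h, a log2 fold change of 0.79 (SE 0.0808, adjusted p = 4.2e-06) with no overlap. IL6 itself measured 9.83, 10.9 and 10.3 CPM at 0 h and 14.1, 17.5 and 13.5 CPM at 12 h and rose by 0.54 (adjusted p = 0.0029). CSF2 and CSF3, the growth factors of granulocytes and macrophages and of granulocytes, rose by 0.50 and 1.37. CSF2 was not called without 0 h replicates 1 or 2 or 12 h replicates 1 or 3, nor CSF3 without 12 h replicate 2 (adjusted p up to 0.074 and 0.081). IL24 rose from 2.86, 2.87 and 2.3 to 6.38, 4.52 and 5.22 CPM, a log2 fold change of 0.99 (adjusted p = 0.014), and was lost without 0 h replicate 3 (adjusted p = 0.051). Its expected counts were not whole in all 17 libraries, so that reads were shared with another gene. LIF, IL32 and IL18 were not called, at -0.03, -0.02 and 0.11. From 12 h to 24 h CSF1 rose by 0.45 (adjusted p = 5.7e-05) and IL11 by 0.36 (adjusted p = 0.0057).

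**Figure D3:**
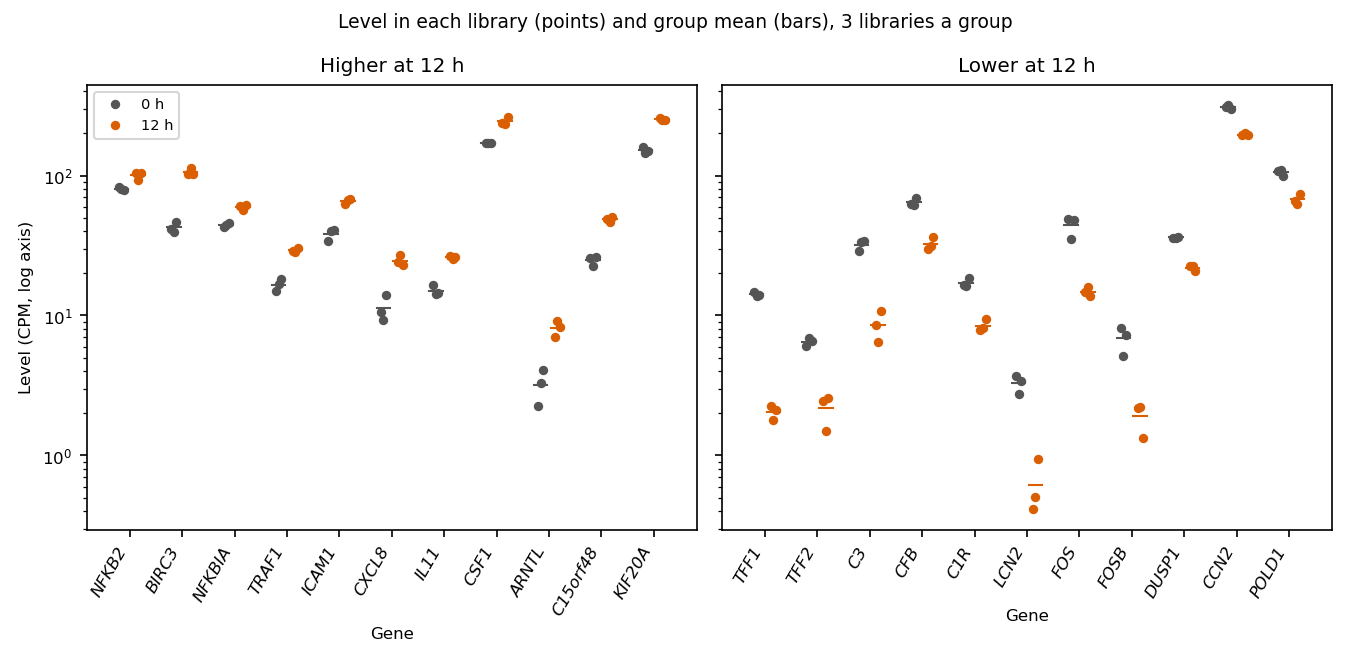
Points are the level of each gene in single libraries, in CPM on a log axis, at 0 h (grey) and 12 h (orange), and short lines are the means of 3 libraries. In every gene shown the groups do not overlap, which was a condition for those named by size. TFF1 has the widest gap between the groups among the genes shown.

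TNF ligand genes split, with 3 higher (42.9%) and 1 lower (14.3%) among 7 tested. LTB, which encodes lymphotoxin-beta, a trigger of the non-canonical NF-kB branch, rose from 0.684, 0.249 and 0.498 to 1.37, 1.35 and 2 CPM, a log2 fold change of 1.71 (adjusted p = 0.0025). This call rests on few counts at 0 h. LTA, another TNF ligand gene, had 3, 0 and 4 counts at 0 h and 1, 2 and 3 at 12 h and was not tested. TNFSF15 rose from 2.68, 1.81 and 2.49 to 4.39, 5.32 and 3.5 CPM (log2 fold change 0.92, adjusted p = 0.0025). TNF had 0 counts in each 0 h library and 4, 3 and 4 at 12 h, at least 1.16-fold above a floor of 3 counts per library. TNF was not called without 0 h replicate 1 or 0 h replicate 2 (adjusted p up to 0.051). TNFSF9, the ligand of 4-1BB on T cells, fell from 6.04, 6.48 and 6.35 to 3.57, 3.76 and 4.11 CPM, a log2 fold change of -0.72 (adjusted p = 0.0028). TNFSF10, which encodes TRAIL, was not called at -0.07, with 0 h libraries from 59.9 to 78.2 CPM around the 12 h libraries.

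The tested genes for TRAIL receptors, 5, and for the death-inducing complex, 8, gave 0 calls in either direction with edgeR, where 12.4% of all genes were called. In each list 2 genes had an unadjusted p below 0.05, beside 4266 of all 15365 genes tested. The death receptor TNFRSF10B measured 116, 129 and 119 CPM at 0 h and 131, 146 and 129.8 CPM at 12 h, which did not overlap but missed the threshold, at 0.16 (adjusted p = 0.063). It was called without 0 h replicate 2 (0.21, adjusted p = 0.044), with DESeq2 (0.17, adjusted p = 0.043), with the offsets for length and GC content (0.15, adjusted p = 0.032) and with scaling by library size alone (0.20, adjusted p = 0.045). TNFRSF11B, which encodes the soluble decoy osteoprotegerin, stood at -0.47 (adjusted p = 0.061) and was called without 0 h replicate 2 (-0.59, adjusted p = 0.043) and with the offsets (-0.52, adjusted p = 0.035). TNFRSF10A differed by 0.13, and the decoy receptors TNFRSF10C and TNFRSF10D by 0.78 and 0.14. CFLAR, which encodes the caspase 8 inhibitor c-FLIP, measured 57.4, 61.2 and 64.6 CPM at 0 h and 66.2, 67.9 and 69.4 CPM at 12 h, a difference of 0.15 (adjusted p = 0.086). CASP8 and FADD overlapped between the groups, at 0.14 and -0.21, and FADD was called without 12 h replicate 3 (-0.30, adjusted p = 0.030). Against 6 h, TNFRSF10A, TNFRSF10B and CFLAR differed at 12 h by -0.41 (adjusted p = 0.00044), -0.25 (adjusted p = 0.0044) and -0.34 (adjusted p = 0.00034) on the log2 scale. From 12 h to 24 h the 2 receptor genes rose by 0.27 (adjusted p = 0.018) and 0.32 (adjusted p = 0.0015).

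In the BCL2 family 1 of 13 tested genes rose and 1 fell (7.69% each). These shares are close to the 5.96% and 6.48% of all genes tested. BAK1, which encodes a pore-forming killer protein of mitochondria, rose by 0.27 (adjusted p = 0.011), and BCL2L1, which encodes the survival protein BCL-XL, fell from 431, 453 and 444 to 380.4, 377 and 407 CPM (log2 fold change -0.19, adjusted p = 0.014). BAK1 was not called without 0 h replicates 1 or 3 or 12 h replicate 2, nor BCL2L1 without 0 h replicate 2 or 12 h replicate 2 (adjusted p up to 0.077 and 0.081). With the offsets for length and GC content the family gave 2 higher and 0 lower calls. With no filter beyond 1 count it gave 1 higher and 0 lower. MCL1 was not called, at 0.02.

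TFF1 (chr21:42362282-42366594), a trefoil factor secreted with mucus, measured 14.6, 13.9 and 14 CPM at 0 h and 2.26, 1.81 and 2.11 CPM at 12 h. The counts were 235, 223 and 225 against 33, 36 and 38, so that the groups were many times further apart than their spread. The log2 fold change was -2.79 (SE 0.139, adjusted p = 1.8e-10), the lowest of the genes named by the rule on size. Its neighbour TFF2 (chr21:42346357-42351128) measured 6.04, 6.85 and 6.53 CPM at 0 h and 2.47, 1.51 and 2.55 CPM at 12 h, a log2 fold change of -1.59 (SE 0.187, adjusted p = 1.8e-05). TFF3, the third gene of the cluster (chr21:42311667-42315651), was called lower from few counts, at -1.0 (adjusted p = 0.035), and was lost without 0 h replicates 2 or 3 or 12 h replicate 2 (adjusted p up to 0.20). From 6 h to 12 h TFF1 changed by -1.92 (adjusted p = 5.2e-08) and TFF2 by -1.01 (adjusted p = 0.0012). From 12 h to 24 h neither was called, at -0.26 (adjusted p = 0.43) and 0.04 (adjusted p = 0.93).

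C3 (chr19:6677704-6730562), the central protein of complement activation, measured 28.7, 33.3 and 34.2 CPM at 0 h and 8.57, 6.42 and 10.7 CPM at 12 h. The highest 12 h library held well under the lowest 0 h library, and the log2 fold change was -1.91 (SE 0.129, adjusted p = 3.8e-08). CFB, the factor B protease of the alternative pathway, measured 62.7, 61.8 and 69.1 CPM at 0 h and 29.8, 31.3 and 36.7 CPM at 12 h, a log2 fold change of -0.98 (SE 0.0748, adjusted p = 7.6e-08). C1R, a protease of the classical pathway, measured 16.5, 16.3 and 18.5 CPM at 0 h and 7.82, 8.13 and 9.5 CPM at 12 h, a log2 fold change of -1.01 (SE 0.101, adjusted p = 3.7e-06). The 3 genes all separated the groups, which the rule on size that named them required. C4B measured 13.5, 14 and 16.9 CPM at 0 h and 5.42, 5.92 and 8.22 CPM at 12 h (log2 fold change -1.18, adjusted p = 5.3e-05), but its counts were not whole in all 17 libraries, so that its reads and those of its near-copy C4A cannot be fully separated. C3 averaged 32.1 ± 2.42 CPM at 6 h, and its log2 difference was -1.91 (adjusted p = 9.1e-09) from 6 h to 12 h and -0.12 (adjusted p = 0.63) from 12 h to 24 h. CFB and C1R had -0.88 and -0.98 from 6 h to 12 h, both called, and were not called from 12 h to 24 h. The complement inhibitor CD55 went the other way, from 146, 137 and 153 to 155, 182 and 172 CPM (log2 fold change 0.23, adjusted p = 0.027), and was lost without 0 h replicates 1 or 2 or 12 h replicates 2 or 3 (adjusted p up to 0.16). C2, C1S, CD55 and the genes CHI3L2, SERPINA3 and TCN1 were chosen after their values were seen. C2 and C1S fell by 0.45 and 0.82 on the log2 scale, and C1S was lost without 0 h replicate 1 or 12 h replicate 2 (adjusted p up to 0.10).

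A list of further NF-kB targets, for surface and secreted proteins and also for intracellular ones such as BIRC3 and IRAK2, was divided, with 5 of 14 tested genes higher and 5 lower. The members that rose were BIRC3, ICAM1, IRAK2, PTX3 and TNFAIP2, and those that fell were LCN2, C3, SAA2, CFB and SAA1. PTX3 and TNFAIP2 were not called without 0 h replicate 1 (adjusted p up to 0.071 and 0.081 over the libraries left out). PTX3 was also lost without 12 h replicate 2, and TNFAIP2 without 0 h replicate 2 or 12 h replicate 1. LCN2, a siderophore-binding protein of neutrophils and epithelia, had 59, 44 and 55 counts at 0 h and 6, 10 and 17 at 12 h, a log2 fold change of -2.37 (SE 0.307, adjusted p = 5.1e-05). SAA1 and SAA2, acute phase proteins, fell by 0.63 and 1.03 on the log2 scale (adjusted p = 0.00036 and 9.0e-07). SAA2 measured 34, 31.3 and 31.6 CPM at 0 h and 18.3, 14.5 and 14.8 CPM at 12 h, but counts of both were not whole in all 17 libraries, so that reads may be divided between these near-copies. CHI3L2, a chitinase-like protein, SERPINA3, an acute phase protease inhibitor, and TCN1, a vitamin B12 carrier, fell too, with log2 fold changes of -2.11, -1.38 and -1.40. CHI3L2 measured 5.72, 5.11 and 5.79 CPM at 0 h and 1.44, 1.05 and 1.39 CPM at 12 h.

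AP-1 genes went in both directions, with 2 of 12 higher (16.7%) and 3 lower (25%). FOS, an immediate-early subunit of AP-1, measured 48.6, 35.3 and 48 CPM at 0 h and 14.7, 15.9 and 13.7 CPM at 12 h. All 12 h libraries lay below all 0 h libraries, as the rule on size required, with a log2 fold change of -1.57 (SE 0.134, adjusted p = 9.0e-07). FOSB, its relative, measured 8.15, 5.17 and 7.28 CPM at 0 h and 2.19, 2.21 and 1.33 CPM at 12 h, a log2 fold change of -1.85 (SE 0.224, adjusted p = 2.7e-05). At 6 h FOS and FOSB averaged 43.1 ± 7.44 and 10.3 ± 1.89 CPM (SD, n = 3), and from there to 12 h the log2 differences were -1.54 (adjusted p = 5.1e-07) and -2.43 (adjusted p = 3.8e-07). FOSL2 measured 112, 123 and 117 CPM at 0 h and 176, 176 and 175 CPM at 12 h and rose by 0.58 (adjusted p = 6.5e-05). JUNB rose by 0.48 (adjusted p = 0.0047). JUND was called lower, at -0.53 (adjusted p = 0.042), but not without any 1 of the 0 h libraries or without 12 h replicate 2 (adjusted p up to 0.12). JUN, FOSL1 and ATF3 overlapped between the groups.

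Among 18 immediate-early genes 3 rose and 3 fell (16.7% each). With the offsets for length and GC content 4 were called higher and 0 lower, and with scaling by library size only 3 were called higher and 1 lower. IER3, which encodes a short-lived stress protein, measured 357, 336 and 341 CPM at 0 h and 521, 431 and 484 CPM at 12 h and rose by 0.47 (adjusted p = 0.00048). Its expected counts were fractional in all 17 libraries. ZFP36L2 and ZFP36, which encode proteins that speed the decay of cytokine mRNAs, rose by 0.31 (adjusted p = 0.0063) and 0.29 (adjusted p = 0.019). KLF2, IER5 and MYC fell by 0.46, 0.25 and 0.18 on the log2 scale. IER5 was not called when any 1 of the 6 libraries was left out (adjusted p up to 0.20). KLF2 and MYC were not called without 0 h replicate 2 or without 12 h replicate 2, nor KLF2 without 0 h replicate 1, nor ZFP36 without 0 h replicate 1 or 12 h replicate 1 (adjusted p up to 0.14, 0.10 and 0.11). EGR1 overlapped between the groups, at 0.14.

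Of 14 genes for phosphatases and Sprouty proteins that restrain ERK signalling, 4 rose (28.6%) and 2 fell (14.3%). DUSP1, a phosphatase of several MAP kinases, measured 36, 36.1 and 36.4 CPM at 0 h and 22.6, 22.5 and 20.7 CPM at 12 h. The values within each group were nearly equal and far from the other group, with a log2 fold change of -0.72 (SE 0.0683, adjusted p = 1.5e-06). DUSP4 and DUSP5, phosphatases of nuclear ERK, rose by 0.39 (adjusted p = 0.00014) and 0.28 (adjusted p = 0.0029). DUSP4 measured 202, 221 and 217 CPM at 0 h and 269, 282 and 287 CPM at 12 h. SPRY4, SPRED3 and DUSP2 were called at 0.22, 0.54 and -0.80, and all 3 were lost without 12 h replicate 2 (adjusted p up to 0.10, 0.21 and 0.072 over the libraries left out). SPRY4 was called only without 0 h replicate 1, SPRED3 was also lost without 0 h replicate 1 or 12 h replicate 3, and DUSP2 without 0 h replicate 1 or 12 h replicate 1. TGFA was the 1 of 9 genes (11.1%) for EGF receptor ligands and receptors that was called (log2 fold change 0.25, adjusted p = 0.0073).

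Targets of YAP and TAZ, coactivators that respond to cell shape and density, gave 0 higher and 4 lower calls among 13 (30.8% lower). CCN2, a secreted matrix protein, measured 310.4, 320.4 and 301 CPM at 0 h and 195, 201 and 193 CPM at 12 h, a log2 fold change of -0.66 (SE 0.056, adjusted p = 4.2e-07). AMOTL2 and CCN1 fell by 0.35 and 0.32 on the log2 scale (adjusted p = 0.0031 and 0.0044). ANKRD1 was called at -0.20 and lost in 5 of the 6 fits that left out a library, all but that without 0 h replicate 2 (adjusted p up to 0.10). TGFBI, a matrix adaptor protein induced by TGF-beta, measured 304, 317 and 333 CPM at 0 h and 213, 224 and 240.2 CPM at 12 h, a log2 fold change of -0.49 (adjusted p = 1.3e-05) without overlap. In a list of 13 ID genes and targets of BMP and TGF-beta, 1 gene rose (7.69%) and 2 fell (15.4%). ID1 was the gene called higher, with 85.2, 86.2 and 79.2 CPM at 0 h and 103, 86.5 and 110.3 CPM at 12 h (log2 fold change 0.26, adjusted p = 0.045), and was lost in 5 of the 6 fits, all but that without 12 h replicate 2 (adjusted p up to 0.20).

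Genes of the cell cycle divided by phase. Of 39 genes of DNA replication and S phase, 30 fell and 0 rose, and all 39 had a negative log2 fold change, with a median of -0.32. The share called lower, 76.9%, stands beside 6.48% of all genes tested. POLD1, the catalytic subunit of DNA polymerase delta, measured 107, 110.3 and 99 CPM at 0 h and 66, 62.5 and 73.9 CPM at 12 h, a log2 fold change of -0.65 (SE 0.0723, adjusted p = 1.1e-05) without overlap. E2F1, a transcription factor of S phase entry, measured 158, 155 and 141 CPM at 0 h and 106, 93 and 101 CPM at 12 h. Its 12 h libraries all lay below its 0 h libraries, with a log2 fold change of -0.60 (SE 0.0612, adjusted p = 4.2e-06). PCNA, the sliding clamp of the polymerases, measured 336, 309 and 327 CPM at 0 h and 231, 226 and 228 CPM at 12 h (log2 fold change -0.51, adjusted p = 2.2e-05), and CDC45, part of the replicative helicase, measured 58.7, 58.9 and 58.8 CPM at 0 h and 37.3, 38.9 and 42.2 CPM at 12 h (log2 fold change -0.57, adjusted p = 1.5e-05). The MCM helicase subunits MCM2 to MCM7 were all called lower, between -0.28 and -0.41, with MCM3 at 560.4, 571 and 552 CPM at 0 h and 427, 429 and 414 CPM at 12 h. MCM2 was not called without 0 h replicate 2, 12 h replicate 1 or 12 h replicate 2 (adjusted p up to 0.10). The expected counts of MCM2 and MCM7 were not whole in 15 or more libraries, so that reads were shared with other genes. Leaving out 1 library at a time gave 24 to 29 genes called lower and the offsets for length and GC content gave 33. From 6 h to 12 h 17 of the 39 fell and 1 rose, and from 12 h to 24 h 11 rose and 0 fell.

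Of 50 genes of mitosis and G2/M, 21 rose and 2 fell, 42 had a positive log2 fold change, and the median was 0.17. The share called higher, 42%, stands beside 5.96% of all genes. KIF20A, a motor protein of cytokinesis, measured 161, 145 and 150.4 CPM at 0 h and 256, 251 and 251 CPM at 12 h. The 12 h libraries were almost equal and far above those at 0 h, with a log2 fold change of 0.73 (SE 0.0516, adjusted p = 4.0e-08). NEK2, a centrosome kinase, measured 48.1, 52 and 51 CPM at 0 h and 72.7, 78.6 and 76 CPM at 12 h (log2 fold change 0.59, adjusted p = 3.7e-05). CCNB1, the cyclin B1 of mitotic entry, measured 324, 308 and 301 CPM at 0 h and 415, 428 and 401 CPM at 12 h, a log2 fold change of 0.42 (SE 0.0632, adjusted p = 0.00031). The spindle genes CENPE, ASPM, PLK1 and CDC20 rose by 0.48, 0.44, 0.36 and 0.30. AURKA, a spindle pole kinase, rose by 0.48 (adjusted p = 1.1e-05), with counts not whole in 15 libraries, and AURKB, its relative at the centromere, fell from 130.2, 132 and 122 to 109, 95.2 and 99.9 CPM (log2 fold change -0.34, adjusted p = 0.0040). CDK1 was called at -0.20 and lost in 5 of the 6 fits that left out a library, all but that without 0 h replicate 2 (adjusted p up to 0.12). MKI67 and TOP2A were not called, at 0.22 and 0.03. The calls of higher mitosis genes ranged from 15 to 22 when 1 library was left out, and numbered 24 with the offsets for length and GC content. From 0 h to 6 h 32 of the 50 rose and 0 fell, and from 6 h to 12 h 8 rose and 9 fell, with a median of -0.071. From 12 h to 24 h 12 of the 50 fell and 0 rose, and KIF20A was higher at 12 h than at 6 h by 0.63 (adjusted p = 1.2e-07).

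Among 16 genes for G1 cyclins, CDK inhibitors and p53 targets 1 rose (6.25%) and 4 fell (25%). GADD45A and GADD45B, stress-induced growth arrest proteins, fell by 0.53 and 0.54 on the log2 scale (adjusted p = 0.00048 and 0.00049). GADD45A measured 107, 93.7 and 92.1 CPM at 0 h and 71.6, 64 and 67.7 CPM at 12 h, with no overlap. CDKN1A, which encodes the CDK inhibitor p21, overlapped, with 104, 121 and 111 CPM at 0 h and 107, 113 and 117 CPM at 12 h (0.01). It stood at 218 ± 2.99 CPM at 6 h, and the log2 difference from there to 12 h was -0.95 (adjusted p = 1.3e-09). CDK6 rose by 0.39 (adjusted p = 0.016) and was lost without 0 h replicate 1 or 12 h replicate 2 (adjusted p up to 0.079), and CDK4 and CDKN2C fell by 0.28 and 0.31 on the log2 scale. Of 26 tested replication-dependent histone genes 0 were called in either direction with edgeR, where 12.4% of all genes were. With DESeq2 1 was called. With edgeR 7 of the 26 had an unadjusted p below 0.05, beside 4266 of all 15365 genes tested. Poly(A) selection captures few histone transcripts of this class, which end without a poly(A) tail. CCNA1, the germline cyclin A1, was among the 12 genes with the highest log2 fold change, from 6.28, 4.61 and 5.17 to 11.2, 11.4 and 10.3 CPM (log2 fold change 1.03, adjusted p = 5.6e-05).

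**Figure D4:**
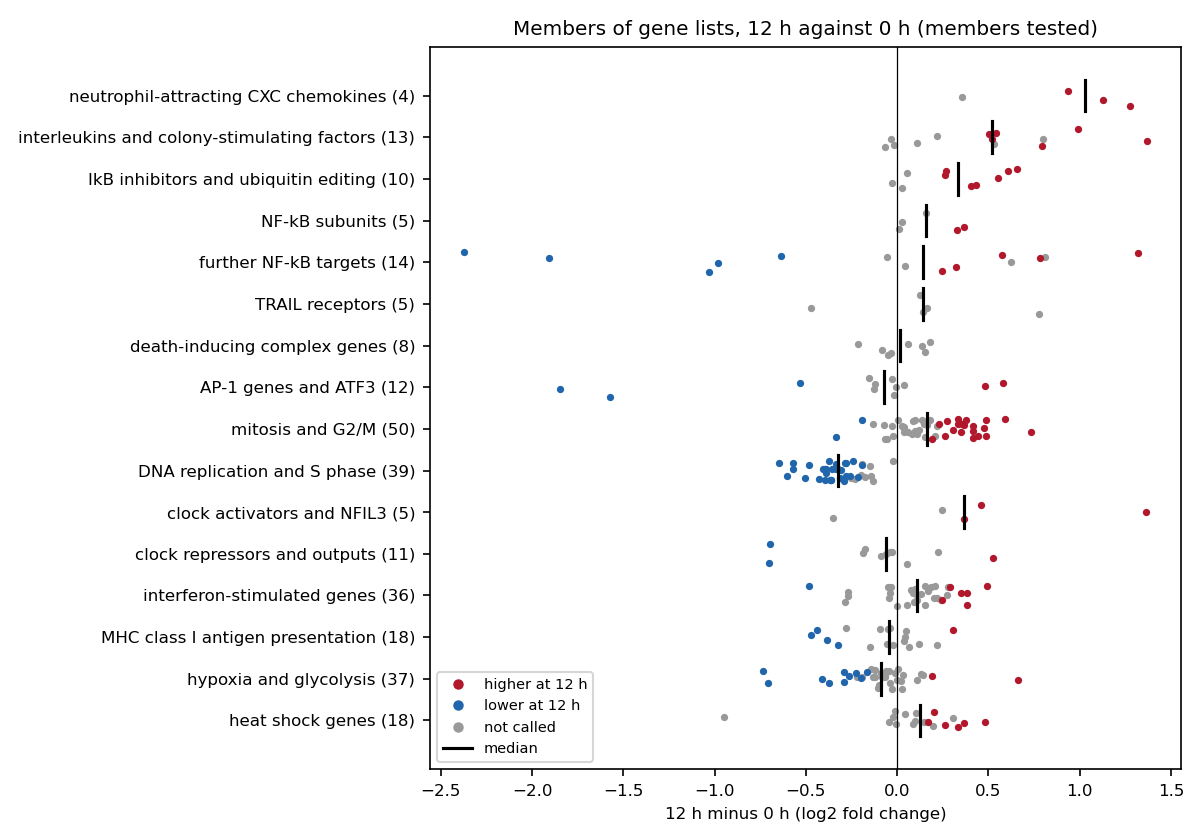
Each point is the log2 fold change, 12 h minus 0 h, of 1 tested member of a list (number tested in brackets), red where called higher, blue where called lower and grey where not called, with vertical jitter only. Black bars are medians; replication genes all lie left of 0 with a median of -0.32 and mitosis genes mostly right of it with a median of 0.17.

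Several genes of the circadian clock changed. In the clock, ARNTL and CLOCK or NPAS2 activate E-box genes such as those of the PER and NR1D families, whose products repress them in turn. ARNTL (chr11:13276652-13387266), which encodes BMAL1, had the highest log2 fold change among the genes named by size, with 2.24, 3.3 and 4.05 CPM at 0 h and 7.06, 9.13 and 8.33 CPM at 12 h. Each library at 12 h exceeded each at 0 h, as that rule required, with a log2 fold change of 1.36 (SE 0.182, adjusted p = 7.3e-05). NPAS2 measured 75.2, 73.2 and 72.3 CPM at 0 h and 93.5, 95.1 and 96.1 CPM at 12 h and NFIL3, a repressor of D-box genes, measured 19.2, 16.5 and 17.4 CPM at 0 h and 24, 26.2 and 22.8 CPM at 12 h, at 0.37 (adjusted p = 0.00090) and 0.46 (adjusted p = 0.0013) on the log2 scale, so that 3 of 5 tested genes of a list of clock activators, to which NFIL3 was added, rose and 0 fell. Among 11 repressor and output genes 1 rose (9.09%) and 2 fell (18.2%). PER2 measured 9.52, 9.34 and 8.53 CPM at 0 h and 5.21, 5.77 and 5.89 CPM at 12 h and PER3 35.6, 36.4 and 38.4 CPM at 0 h and 21.6, 24.4 and 21.8 CPM at 12 h, at -0.69 (adjusted p = 0.00063) and -0.70 (adjusted p = 2.7e-05) on the log2 scale. NR1D1, which encodes the nuclear receptor REV-ERB-alpha, measured 14.6, 17.1 and 15.5 CPM at 0 h and 24.9, 21 and 22.2 CPM at 12 h, a log2 fold change of 0.53 (adjusted p = 0.0055). Counts of PER3, NR1D1 and NPAS2 were not whole in 15 or more libraries, and NR1D1 overlaps a gene on the other strand.

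Against 6 h, 7 of these 11 repressor and output genes were higher at 12 h and 2 lower. NR1D1 averaged 5.9 ± 0.624 CPM at 6 h, rose to 22.7 ± 2 by 12 h and fell to 9.84 ± 1.1 by 24 h (SD, n = 3), with log2 differences of 1.94 (adjusted p = 6.4e-09) and -1.20 (adjusted p = 1.0e-05). The output genes DBP and TEF showed 1.51 (adjusted p = 9.9e-06) and 1.33 (adjusted p = 2.1e-07) from 6 h to 12 h and were not called against 0 h, at -0.06 and -0.19. The E-box sequence CACGTG, its own reverse complement, was in 0 of the 6 promoters of called clock genes and in 2030 of 27305 promoters overall (7.43%).

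Interferon-stimulated genes, which encode antiviral proteins, gave 6 higher (16.7%) and 1 lower (2.78%) calls among 36, with a median of 0.11. IRF9, part of the interferon-activated factor ISGF3, measured 12, 11.2 and 12.1 CPM at 0 h and 18.2, 13.8 and 17.8 CPM at 12 h (log2 fold change 0.49, adjusted p = 0.0075), and PARP14 measured 27.3, 31.3 and 30.6 CPM at 0 h and 36.7, 40.6 and 38.9 CPM at 12 h (log2 fold change 0.38, adjusted p = 0.0050). Both separated the groups. OAS2 rose by 0.35. DDX58, IFIT2 and PARP9 were called higher but lost without 12 h replicate 2, IFIT2 and PARP9 also without 0 h replicates 1 or 2, IFIT2 without 12 h replicate 3, and PARP9 without 0 h replicate 3 or 12 h replicate 1 (adjusted p up to 0.063, 0.087 and 0.12). Counts of IRF9 were not whole in 17 libraries. IFI27 fell from 93.8, 87.7 and 84.2 to 71.9, 54.6 and 64.5 CPM (log2 fold change -0.48, adjusted p = 0.0068). ISG15 overlapped between the groups, at -0.04. From 6 h to 12 h 16 of the 36 rose and 0 fell, and from 12 h to 24 h 20 rose and 0 fell.

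In MHC class I presentation, by which cells show peptides to T cells, 1 of 18 genes rose (5.56%) and 4 fell (22.2%). Over all genes tested 5.96% rose and 6.48% fell. The class I heavy chain HLA-B measured 1112, 1159 and 1139 CPM at 0 h and 806, 792 and 915 CPM at 12 h. The groups did not overlap, with a log2 fold change of -0.44 (adjusted p = 0.00029). HLA-C and HLA-F fell by 0.32 and 0.39 on the log2 scale, and TAP1, a subunit of the peptide transporter, rose from 97.2, 108 and 104 to 125, 126 and 132 CPM (log2 fold change 0.31, adjusted p = 0.0013). HLA-F was lost without 12 h replicate 1 or 12 h replicate 2 (adjusted p up to 0.061), and counts of HLA-B, HLA-C, HLA-F and TAP1 were not whole in 15 or more libraries, so that reads were shared with other genes. Of 13 genes for immune checkpoints and suppression 1 rose and 1 fell, both small. At 7.69% each, these counts are close to the shares of all genes. CD274, which encodes PD-L1, measured 25.9, 28.6 and 30.9 CPM at 0 h and 33.3, 36.6 and 33.9 CPM at 12 h (log2 fold change 0.28, adjusted p = 0.032), and VSIR, which encodes VISTA, measured 9.96, 9.16 and 9.15 CPM at 0 h and 6.79, 6.32 and 7.89 CPM at 12 h (log2 fold change -0.43, adjusted p = 0.027). Each was lost without 0 h replicates 1 or 2 or 12 h replicate 2, CD274 also without 12 h replicate 3 and VSIR without 12 h replicate 1 (adjusted p up to 0.17 and 0.15). CD274 had averaged 57.4 ± 0.971 CPM at 3 h and 47.4 ± 2.71 at 6 h. NT5E, which encodes the adenosine-producing enzyme CD73, overlapped between the groups, with 399.9, 434 and 456 CPM at 0 h and 387, 463 and 419.6 CPM at 12 h.

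In the matrix protease and urokinase system 5 of 12 tested genes rose (41.7%) and 1 fell (8.33%). MMP1, an interstitial collagenase, measured 47.3, 54.2 and 55.5 CPM at 0 h and 65.3, 78.4 and 72 CPM at 12 h, a log2 fold change of 0.46 (SE 0.0765, adjusted p = 0.00069). PLAU, the urokinase protease, measured 428, 413 and 402 CPM at 0 h and 555, 553 and 544 CPM at 12 h (log2 fold change 0.41, adjusted p = 4.1e-05), and MMP14, a membrane-bound protease, measured 367, 419 and 406 CPM at 0 h and 475, 511 and 524 CPM at 12 h (log2 fold change 0.34, adjusted p = 0.00074). All 3 separated the groups, and counts of PLAU were not whole in 17 libraries. The urokinase inhibitor SERPINB2 rose from 1.24, 2.37 and 2.3 to 3.57, 4.57 and 4.11 CPM (log2 fold change 1.06, adjusted p = 0.0049). Among 28 genes for collagens, laminins and integrins 3 rose (10.7%) and 6 fell (21.4%). But the lower calls numbered 1 without 0 h replicate 2, and 2 without 12 h replicate 1 or 12 h replicate 2. With scaling by library size only the lower calls numbered 2. They numbered 3 without 0 h replicate 3, and the higher calls numbered 1 without 0 h replicate 1, 12 h replicate 2 or 12 h replicate 3. COL13A1, a transmembrane collagen, was the lowest at -0.44 (adjusted p = 2.8e-05) and ITGA5, the fibronectin receptor subunit, rose by 0.32 (adjusted p = 0.0013). Of 12 tested genes of the mesenchymal and epithelial transition 0 rose and 2 fell (16.7%). SNAI2, a transcription factor of that transition, measured 43.5, 44 and 43.6 CPM at 0 h and 32.7, 33 and 36.9 CPM at 12 h (log2 fold change -0.35, adjusted p = 0.0029), and fibronectin, FN1, was called lower at -0.48 (adjusted p = 0.011), which was lost without 12 h replicate 2 (adjusted p = 0.054). VIM overlapped, at -0.02, and 1 gene was called higher without 0 h replicate 3.

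Of 37 hypoxia and glycolysis genes 2 rose (5.41%) and 10 fell (27%), with a median of -0.091. Over all genes tested 5.96% rose and 6.48% fell. Without 12 h replicate 2 the lower calls of this list numbered 5. CA9, a hypoxia-induced carbonic anhydrase, measured 23, 23.4 and 20.3 CPM at 0 h and 13.6, 12.6 and 14.5 CPM at 12 h, a log2 fold change of -0.71 (SE 0.0983, adjusted p = 0.00012). ALDOC, an aldolase of glycolysis, was lower, at -0.74 (adjusted p = 0.00053) on the log2 scale. SLC2A3, the glucose transporter GLUT3, rose from 18.8, 20.9 and 20.5 to 28.3, 34.7 and 31.8 CPM (log2 fold change 0.66, adjusted p = 0.00031). VEGFA was also called higher, at 0.19, with an overlap of 1 library, and was lost without 0 h replicates 2 or 3 or 12 h replicates 1 or 2 (adjusted p up to 0.17). Of 32 genes of cholesterol and fatty acid synthesis 2 rose (6.25%) and 8 fell (25%). The lower calls numbered 4 without 0 h replicate 2, 5 without 0 h replicate 3 or 12 h replicate 1, and 3 without 12 h replicate 2. SQLE, which makes squalene epoxide, was called at 0.31 and lost without 0 h replicates 1 or 2 or 12 h replicates 2 or 3 (adjusted p up to 0.094).

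Among 16 genes that restrain mTOR or respond to low growth signals 3 rose (18.75%) and 2 fell (12.5%). DDIT4, an inhibitor of mTOR complex 1, measured 75.3, 80.9 and 76.8 CPM at 0 h and 137, 130.1 and 131 CPM at 12 h, a log2 fold change of 0.77 (SE 0.0676, adjusted p = 5.8e-07). IRS2, an adaptor of the insulin receptor, fell from 30.7, 33.4 and 29.7 to 21, 21.3 and 22.5 CPM (log2 fold change -0.53, adjusted p = 0.00039). FOXO3, TXNIP and SESN2 were called at 0.24, 0.24 and -0.42. FOXO3 was lost without any 1 of the 6 libraries, and TXNIP and SESN2 without 0 h replicate 1 or 12 h replicate 2 (adjusted p up to 0.16, 0.060 and 0.060). DDIT4 was higher at 12 h than at 6 h by 0.65 (adjusted p = 2.3e-06). Of 18 heat shock genes 6 rose (33.3%) and 0 fell, with 3 called higher without 0 h replicate 2. CHORDC1, an HSP90 cochaperone, measured 61.9, 56.3 and 56.4 CPM at 0 h and 83.4, 85.1 and 75.2 CPM at 12 h (log2 fold change 0.48, adjusted p = 0.00012), and HSP90AA1 itself measured 1913, 2041 and 2095 CPM at 0 h and 2458, 2772 and 2567 CPM at 12 h (log2 fold change 0.37, adjusted p = 0.0032), with counts not whole in 17 libraries. Of 20 genes of the endoplasmic reticulum stress response 4 rose (20%) and 0 fell. The higher calls of this list numbered 7 with the offsets for length and GC content. They numbered 1 without 0 h replicate 2, and 2 without 0 h replicate 1 or 12 h replicate 2. HSPA5, the chaperone BiP, measured 1158, 1097 and 1168 CPM at 0 h and 1357, 1444 and 1396 CPM at 12 h (log2 fold change 0.29, adjusted p = 0.0023). Among 21 antioxidant and iron storage genes 0 rose and 4 fell (19%). The lower calls numbered 1 without 12 h replicate 2 and 2 without 0 h replicates 1 or 2 or 12 h replicate 1. The ferritin heavy chain FTH1 measured 1339, 1402 and 1308 CPM at 0 h and 1023, 896 and 1014 CPM at 12 h, a log2 fold change of -0.46 (adjusted p = 0.00089) with no overlap, and counts not whole in 17 libraries.

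Counts in large gene families stand beside 5.96% of all genes called higher and 6.48% called lower. Of 84 ribosomal protein genes 0 rose and 3 fell, although 80 had a negative log2 fold change, with a median of -0.14. Without 0 h replicate 2 and without 12 h replicate 2 none was called, and without 0 h replicate 1, 1 was. The lower calls numbered 21 with no filter beyond 1 count, 9 in a fit of only the 0 h and 12 h libraries, and 6 with DESeq2 or with the offsets for length and GC content. Of 75 nuclear genes for respiratory chain subunits 0 rose and 3 fell, the latter 0 without 0 h replicate 2 or 12 h replicate 2, 1 without 0 h replicate 1 and 5 without 0 h replicate 3 or 12 h replicate 3. They numbered 8 with no filter beyond 1 count and 5 with DESeq2, a mean count of at least 10 or only the 0 h and 12 h libraries. Of 13 mitochondrial mRNAs 0 rose and 1 fell, with a median of -0.34 that ran from -0.51 to -0.15 when 1 library was left out. The lower calls were 0 without 0 h replicate 1 or 12 h replicates 2 or 3, 2 without 0 h replicate 2 and 3 without 12 h replicate 1. They numbered 8 with no filter beyond 1 count, 3 with limma-voom or the offsets, 2 with a replicate block and 0 with only the 0 h and 12 h libraries. The share of mitochondrial counts given above moves with these 13, and its part in other results was not tested. Of 30 ribosome biogenesis genes 0 rose and 3 fell, 1 without 12 h replicate 2, while 20 of 30 were lower at 12 h than at 6 h. Of 37 proteasome genes 3 rose and 0 fell, with 1 higher without 0 h replicates 1 or 2 or 12 h replicates 1 or 2. Among 419 zinc finger genes 45 (10.7%, against 5.96% of all genes) rose and 9 fell, with a median of 0.11. Their median transcript length was 4023 bases and their median GC content 43.4%, against 3333 bases and 48.4% over all genes. The higher calls numbered 11 without 12 h replicate 2, 16 without 0 h replicate 2, 20 without 0 h replicate 1 and 26 without 12 h replicate 1, and 38 with the offsets for length and GC content. The lower calls numbered 2 without 0 h replicate 1 or 12 h replicate 2 and 3 without 0 h replicate 2. Of 194 solute carrier genes 9 rose and 14 fell, 4.64% and 7.22%, close to the shares of all genes, with 3 higher and 5 lower without 12 h replicate 2, 3 and 7 without 0 h replicate 1, 5 and 7 without 0 h replicate 2, 5 higher without 0 h replicate 3 and 4 higher without 12 h replicate 3. Among 26 targets of ATF4, 20 aminoacyl-tRNA synthetase genes and 7 metallothionein genes, the calls were 2 higher and 2 lower, 3 and 1, and 1 and 1. Without 0 h replicate 1 or 12 h replicate 2 no more than 1 gene of each was called in a direction, and other libraries moved these counts as well. SLC38A5, a glutamine transporter, was the lowest of the solute carriers, from 3.48, 3.11 and 3.24 to 1.92, 1.51 and 1.39 CPM (log2 fold change -1.04, SE 0.17, adjusted p = 0.00056).

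The remaining genes named by size belonged to none of the lists. RASD1, a small GTPase induced by glucocorticoids, measured 5.48, 6.29 and 5.29 CPM at 0 h and 12, 10.9 and 14.5 CPM at 12 h, a log2 fold change of 1.13 (SE 0.146, adjusted p = 5.2e-05). C15orf48, which encodes a small protein of respiratory complex IV, measured 25.6, 22.5 and 26.4 CPM at 0 h and 49, 46.8 and 50.8 CPM at 12 h (log2 fold change 0.98, SE 0.116, adjusted p = 2.6e-05). In neither did the groups overlap, as the rule required. Both differed from 6 h at 12 h, by 1.00 (adjusted p = 8.2e-05) and 0.89 (adjusted p = 3.2e-05). POU2F2, a transcription factor of B cells, measured 7.72, 7.04 and 6.78 CPM at 0 h and 13.5, 11.8 and 13.6 CPM at 12 h (log2 fold change 0.85, adjusted p = 1.0e-05), and TRIM69, a ubiquitin ligase, measured 4.29, 4.61 and 4.79 CPM at 0 h and 7.75, 8.28 and 8.55 CPM at 12 h (log2 fold change 0.85, adjusted p = 0.00016). CSPG5, a brain proteoglycan, fell from 5.04, 5.17 and 5.35 to 2.33, 2.21 and 3.28 CPM (log2 fold change -0.99, adjusted p = 0.00067), and the pseudogene MYH16 from 7.47, 9.59 and 7.53 to 3.98, 3.11 and 4 CPM (log2 fold change -1.16, adjusted p = 2.7e-05). The processed pseudogenes SPCS2P4 and BZW1P2 were called higher, at 1.13 and 0.87, and 1 of the entries named TBCE lower, at -1.17. Counts of these 3 were not whole in all 17 libraries, so that their values are uncertain, and TBCE was lost without 0 h replicates 1 or 3 or 12 h replicates 2 or 3 (adjusted p up to 0.13).

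The labelled cell line was checked against markers. All 12 identity markers were detected, their summed level lay between 9824 and 9847 CPM at 0 h and between 9794 and 10065 at 12 h, and 2 rose and 1 fell. MSN and PLAU were higher, at 0.29 and 0.41, and S100A4 lower, at -0.37. MSN was lost without 0 h replicate 1 or 12 h replicate 2, and S100A4 was called in only 1 of the 6 fits, that without 12 h replicate 1 (adjusted p up to 0.086 and 0.17). VIM, the mesenchymal filament protein, measured 3469, 3349.8 and 3253 CPM at 0 h and 3335, 3166 and 3413 CPM at 12 h. Of 15 luminal and hormone receptor markers 11 were tested and 1, CLDN4, was called (log2 fold change 0.26, adjusted p = 0.012), lost without 0 h replicates 1 or 3 or 12 h replicate 3 (adjusted p up to 0.076). The steroid receptor genes ESR1 and PGR had at most 2 counts in any of the 6 libraries. The summed level of the list was 2356 to 2450 CPM at 0 h and 2013 to 2357 at 12 h, which includes the keratins this line expresses. Of 15 leukocyte markers 3 were tested and 0 called by edgeR, DESeq2 or limma-voom (1 at an unadjusted p below 0.05), with sums of 7.28 to 7.96 CPM at 0 h and 5.10 to 7.19 at 12 h, at most 2 counts of PTPRC and 0 of CD3E and CD4. The tested members, CD8A, CD14 and CSF1R, all had a negative log2 fold change, with a median of -0.40. LYZ, not tested, had 2, 4 and 6 counts at 0 h and 6, 5 and 6 at 12 h. Of 13 endothelial and fibroblast markers 7 were tested and 0 called by the same 3 tools (0 at an unadjusted p below 0.05), with sums of 26.1 to 30.0 and 27.4 to 29.6 CPM. Over all genes tested, 4266 of 15365 had an unadjusted p below 0.05.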

How the data were processed

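RNA of MDA-MB-231 cells was sequenced from stranded poly(A)-selected libraries read from both ends, per the labels' protocols. Reads were trimmed with cutadapt 1.18 and aligned with STAR 2.7.0f to hg38, per the submitters' processing notes, and the authors deposited expected counts per gene made with RSEM, per the labels. The annotation release, the RSEM version and its strand setting are not given in the sources used here. RSEM divides reads that fit several genes, and 10.8% of values were not whole (tolerance 1e-06). Identifiers were matched to GENCODE 29 for names, positions, length and GC content: 58597 of 58870 entries matched, 47420 of them in the same version.

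Counts were rounded and filtered with filterByExpr, which left 15365 genes. They were scaled by TMM and fitted with edgeR 4.0.16 (quasi-likelihood, robust, 1 mean per time, 17 libraries) in R 4.3.3, with Benjamini-Hochberg adjustment over all genes and a threshold of 0.05. The fit was tested on simulated data with the same spread for every gene and no effects of length, GC content or single libraries. That test says nothing on such effects. No block was used. CPM values use the scaled totals. Alternatives, with limma 3.58.1 and DESeq2 1.42.0 among them, are given at the end. The named genes were NFKB2, the 12 highest and 12 lowest called log2 fold changes having an average of at least 2 log2 CPM and no overlap of groups, and members of 52 gene lists (1822 genes, 1512 tested). The members and lists were chosen with earlier results of these data known. Some genes are not reported here.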

Additional observations from a re-analysis of the deposited data

How the results depend on the processing

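None of the 16 alternatives reversed the direction of any of the 243 called genes followed, and 136 of them were called in each. The counts of higher and lower genes stayed within 1.5 times under every other scaling, filter, tool, library set or offset tried. At 6 h the dependence of counts on transcript length was 0.0954 and 0.0917 in replicates 2 and 3 and 0.0111 in replicate 1. At 24 h replicates 2 and 3 had 0.134 and 0.124 and replicate 1 had 0.0215. With replicates 2 and 3 averaged at each of these times, 704 genes were called higher and 915 lower. That setting made 1595 of the 1911 calls (83.5%) again. Without a filter beyond 1 count, 29899 genes were tested and the counts of at least 2-fold changes became 87 higher and 121 lower; many more genes of few counts were tested. Leaving out 1 library at a time gave 326 to 689 genes higher, 398 to 913 lower, 19 to 28 higher by at least 2-fold and 29 to 75 lower by at least 2-fold. Of the 1911 calls, 705 (36.9%) were made again without 12 h replicate 2; the cause was not tested. With a replicate block the counts were 951 higher and 1004 lower, and 32 and 62 at 2-fold. Deviations of libraries with the same replicate number at 0 h and 12 h correlated at 0.12, -0.06 and 0.03, so that the numbers were not taken as pairs. Genes with few counts, such as CXCL10, LTB and TNF, are limited by depth.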
